A study of Homo sapiens with 16 samples.

Results

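Quiescent U2OS cells given DMSO, the vehicle of INDY, were compared with quiescent U2OS cells given water, the vehicle of harmine, with 4 RNA-seq libraries in each group. These 8 mock-treated libraries, out of 16 in the series, were taken by their labels, and 20446 of the 59081 genes in the table passed the expression filter and were tested. U2OS is a line from a human osteosarcoma, a bone tumor. All cells of the series were grown to confluence, were kept without serum for 48 h, and received their agent for the last 24 h, namely harmine hydrochloride at 10 µM or INDY at 25 µM, or the vehicle alone. The water group (control of harmine) and the DMSO group (control of INDY) therefore shared the line, the serum-free medium and the times, and received neither inhibitor. The volume of DMSO and whether the sets were grown side by side are not given in the sources used here, so vehicle and culture set cannot be told apart. The labels number the libraries of a group without saying whether they came from separate cultures, so the p-values measure the spread between libraries, which may be technical.

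DMSO is a polar solvent that carries poorly soluble compounds into culture medium, crosses membranes and scavenges hydroxyl radicals, and at high amounts it drives several cell lines to differentiate. A vehicle control holds everything in a treated dish except the compound. Cells without serum leave the cell cycle, and the DREAM complex, assembled after phosphorylation by DYRK1A, then represses genes of the G1/S and G2/M phases. Harmine and INDY inhibit DYRK1A, and each was given with its own vehicle.

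The 8 libraries held 46139738 to 65889667 estimated counts, and mitochondrially encoded genes took 2.7 to 3.46% of them. Water replicates 1 and 4 stood apart from water replicates 2 and 3 on the first principal component of the 8 libraries. This axis held 29.5% of the variance of log2 CPM (counts scaled to library size). Water replicates 1 and 4 lay at -28.6 and -36.7 on it, and water replicates 2 and 3 at -5.1 and -4.3. DMSO replicate 1 lay at 6.8 on the same axis, and DMSO replicates 2, 3 and 4 lay at 20.3, 21.3 and 26.3. All water libraries were thus on one side of this axis and all DMSO libraries on the other. Water 2 and 3 and DMSO 1 were nearest to the middle. On the second component water 4 lay at -16.5, and water 1, 2 and 3 lay at 6.4, 11.9 and 11.4. The root mean square difference between 2 libraries in log2 CPM was 0.377 to 0.516 across the groups. It was 0.352 to 0.419 within water and 0.393 to 0.406 within DMSO, so the ranges overlapped. By this measure DMSO 1 was nearer to water 2 and 3 (0.385 and 0.377) than to DMSO 2, 3 and 4 (0.405, 0.393 and 0.406). Water 1 was about as far from water 4 (0.394) as from water 2 and 3 (0.403 and 0.395). Most results below are given with all libraries and without water replicates 1 and 4, and the rest with all libraries only.

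**Figure D1:**
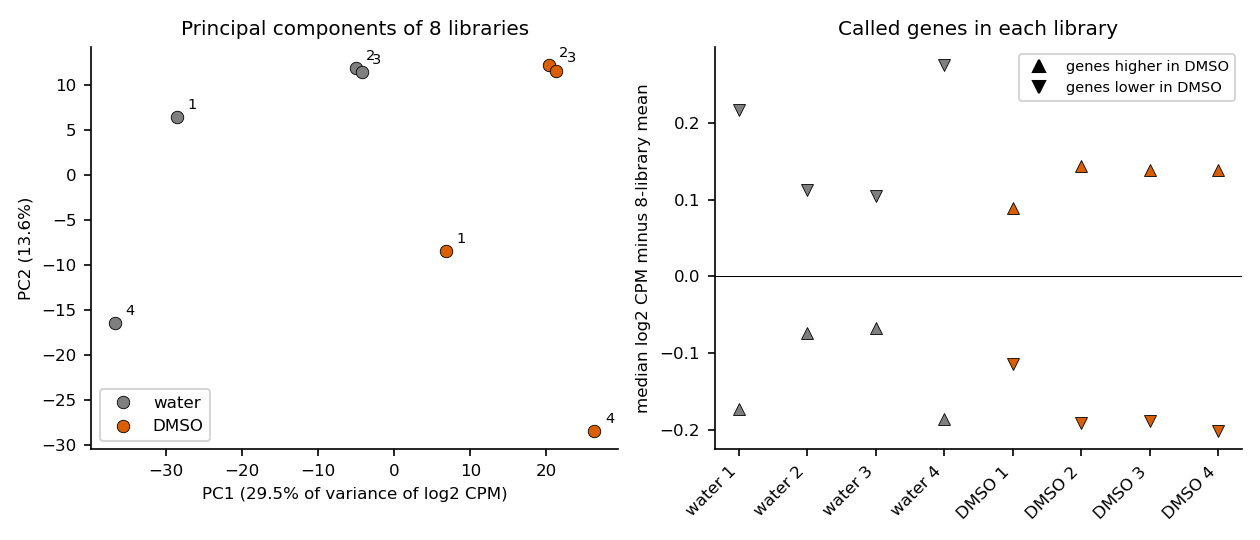
Left, the first 2 principal components of log2 CPM of the 8 mock-treated libraries, with the replicate number beside each point (water grey, DMSO orange; axes in component units, with the percent of variance each holds). Right, the median log2 CPM, relative to the mean of the 8 libraries, of the genes called higher in DMSO (upward triangles) and lower in DMSO (downward triangles); the genes lower in DMSO stood at 0.217 and 0.275 in water replicates 1 and 4 and at 0.112 and 0.104 in water replicates 2 and 3.

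With all libraries, 877 genes differed between DMSO and water at an adjusted p under 0.01 (edgeR quasi-likelihood test), which is 4.29% of the genes tested. Of these, 323 genes were higher in DMSO (1.58%) and 554 were lower (2.71%). Most of these differences were small. The median log2 fold change was 0.25 among the higher genes, a 1.19-fold rise, and -0.37 among the lower genes, a 1.3-fold fall. A change of at least 1.5-fold was seen in 23 of the higher and 138 of the lower genes, and one of at least 2-fold in 8 and 40. Over all genes tested the median log2 fold change was 0.00 and its SD 0.34. Protein-coding genes made up 94.7% of the higher and 85.2% of the lower genes, beside 74.3% of all genes tested. Long noncoding RNAs made up 2.79%, 10.5% and 18.5%. The called genes were also of higher level, with a median of the mean log2 CPM of 4.81, 4.64 and 3.47 in the same order. Whether the shares of gene types follow from level was not tested.

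Both groups of libraries were apart for nearly all called genes. Every DMSO library lay on one side of every water library for 322 of the 323 higher and 547 of the 554 lower genes. These genes were called on the same libraries, so their separation is no independent evidence. Of all genes tested, 9.76% had every DMSO library above and 10.2% every DMSO library below the water libraries, 19.9% together. On the log2 scale, which is used for such gaps throughout, the gap between the groups was wider than the range within either group for 71 of the higher and 155 of the lower genes, beside 1.77% of all. The order of the libraries within a group was not even. Water replicates 1 and 4 both lay above water replicates 2 and 3 for 388 of the 554 lower genes (70%, and 26.1% of all genes tested), and both lay below them for 235 of the 323 higher genes (72.8%, and 27.4% of all). DMSO replicate 1 was the highest DMSO library for 359 of the lower genes (64.8%, and 30.2% of all) and the lowest for 189 of the higher genes (58.5%, and 28.4% of all). Among the called genes, water 1 and 4 were therefore more often the water libraries farther from DMSO, and DMSO 1 more often the DMSO library nearer to water.

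Without water replicates 1 and 4, 15 genes were higher (0.0709% of 21161 tested) and 106 lower in DMSO (0.501%), or 0.572% together. Called in both fits with the same direction were 119 genes, 15 higher and 104 lower (0.582% of the 20446 genes). Both fits share the 4 DMSO libraries and water replicates 2 and 3. All 323 higher and all 554 lower genes kept their direction without water 1 and 4 and had an unadjusted p under 0.05 there, beside 17199 and 2857 of all 20446 genes, while an adjusted p under 0.05 was reached by 72 of the higher and 244 of the lower genes. The fold change became smaller for 294 of the higher and 485 of the lower genes, and the medians became 0.20 and -0.30. The fit without water 1 and 4 kept the harmine and INDY libraries. It had 2 water libraries in place of 4, so a difference was harder to call in it. With only the mock-treated libraries fitted, the same omission left 113 higher and 312 lower genes.

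**Figure D2:**
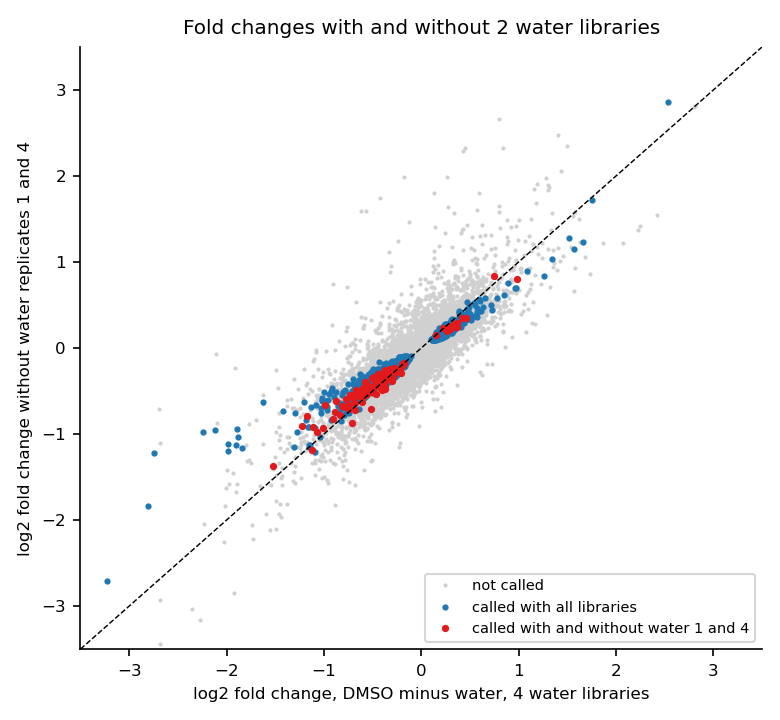
Log2 fold change of each tested gene between DMSO and water with all libraries (horizontal axis) and without water replicates 1 and 4 (vertical axis), with genes not called in grey, genes called with all libraries in blue and the 119 genes called in both fits in red. Most blue points lie between the dashed line of equal values and 0 on the vertical axis, and 31 genes that were not called lie outside the axes.

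The largest rise among the genes named by rule was that of TXNIP (chr1:145992435-145996579, GRCh38, minus strand). It encodes thioredoxin-interacting protein, an alpha-arrestin that binds thioredoxin and lowers glucose uptake. Its level was 19.1, 35.1, 37.0 and 15.2 CPM in water replicates 1 to 4 and 41.5, 71.1, 71.8 and 73.7 CPM in DMSO replicates 1 to 4. The groups did not overlap, water 1 and 4 were the lowest libraries, and DMSO 1 lay nearer to the water libraries than to the other DMSO libraries. The means were 26.6 ± 11.1 and 64.5 ± 15.4 CPM (SD, n = 4 each), a log2 fold change of 1.27 ± 0.25 (SE; edgeR adjusted p = 0.00323). Without water 1 and 4 it was 0.84 with an edgeR adjusted p of 0.0748, above the threshold. The call was also lost when any of water 1, water 4, DMSO 2, DMSO 3 and DMSO 4 was left out alone, with an edgeR adjusted p of at most 0.017.

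ARRDC4 (chr15:97960703-97973833, plus strand), an alpha-arrestin closely related to TXNIP, rose as well. It stood at 13.9, 20.8, 19.9 and 12.3 CPM in water and at 23.0, 35.3, 35.1 and 39.2 CPM in DMSO, by replicate. The libraries were ordered much as for TXNIP, with water 1 and 4 lowest and DMSO 1 the lowest of the DMSO group, and the groups did not overlap. The log2 fold change was 0.98 ± 0.16 (edgeR adjusted p = 0.000748), and 0.70 without water 1 and 4 (edgeR adjusted p = 0.025). In contrast to TXNIP, the call stood when any single library was left out.

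TXNIP and ARRDC4 are known targets of the glucose-sensing factor pair MondoA and MLX, which binds paired E-box-like elements. Their promoters are shown because both genes rose and both are known for such elements. The sequences run 5′ to 3′ from 250 bases before to 50 after the start site in RefSeq (GRCh38.p14; 1 of 2 start sites listed for TXNIP), at chr1:145996530-145996829 on the minus strand for TXNIP and at chr15:97960453-97960752 on the plus strand for ARRDC4. Capitals mark matches of CACGNG on either strand.
TXNIP: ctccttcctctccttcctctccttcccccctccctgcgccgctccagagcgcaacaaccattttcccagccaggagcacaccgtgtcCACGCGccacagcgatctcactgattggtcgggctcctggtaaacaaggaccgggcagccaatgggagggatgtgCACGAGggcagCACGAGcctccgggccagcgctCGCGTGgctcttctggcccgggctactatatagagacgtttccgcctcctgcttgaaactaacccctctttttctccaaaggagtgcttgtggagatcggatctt
ARRDC4: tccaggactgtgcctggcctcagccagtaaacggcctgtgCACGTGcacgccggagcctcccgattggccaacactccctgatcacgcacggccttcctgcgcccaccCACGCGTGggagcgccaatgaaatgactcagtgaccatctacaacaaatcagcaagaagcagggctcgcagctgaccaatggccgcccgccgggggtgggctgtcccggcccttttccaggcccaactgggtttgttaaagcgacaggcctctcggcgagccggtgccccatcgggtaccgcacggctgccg
The TXNIP window held 4 matches, which began at -163, -88, -77 and -55 from the start site, and those at -88 and -77 formed the spaced pair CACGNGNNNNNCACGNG. The ARRDC4 window held a CACGTG at -210, which reads the same on both strands, and overlapping matches on opposite strands at -142 and -140, and it held no spaced pair. CACGNG on either strand occurred in 30.5% of 35116 RefSeq promoters of 27305 genes, and the spaced pair in 20 of them (0.057%). A match is a description of the sequence, and binding was not measured.

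The other 10 largest rises were smaller and of mixed kinds. UNC80, a subunit of the NALCN sodium leak channel complex, rose from 2.66, 3.2, 3.31 and 2.3 CPM in water to 5.23, 5.73, 6.21 and 5.55 CPM in DMSO. The gap between these groups was wider than the range within either, and the log2 fold change of 0.98 remained past the threshold without water 1 and 4 (0.81, edgeR adjusted p = 0.00736). BCYRN1, a small noncoding RNA derived from an Alu repeat, stood at 3.75, 2.76, 2.67 and 2.42 CPM in water and at 4.21, 4.91, 5.13 and 5.23 CPM in DMSO. Its log2 fold change of 0.75 was 0.84 without water 1 and 4 (edgeR adjusted p = 0.00145). DHRS2, a short-chain dehydrogenase, went from 532, 699, 728 and 501 to 893, 1041, 1047 and 1067 CPM, a log2 fold change of 0.72 that was 0.51 without water 1 and 4 (edgeR adjusted p = 0.161). The remaining rises, all called with all libraries and none without water 1 and 4, were those of CCDC85B, SYN1, LINC01419, PCDHGC5, GCNA, ZMYND15 and MMP24, with log2 fold changes of 0.78 down to 0.58. In this set SYN1 and PCDHGC5 share 21.8% and 42.2% of their 100-base stretches with other genes, so their counts are uncertain. Exons of SYN1, ZMYND15 and MMP24 overlap genes on the opposite strand, and the libraries were made with a stranded kit.

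The largest fall among the genes named by rule was that of CLEC7A (chr12:10116777-10130258), which encodes dectin-1, a receptor for beta-glucans best known from myeloid cells. It stood at 27.2, 13.4, 11.2 and 33.8 CPM in water and at 10.0, 3.76, 3.73 and 3.64 CPM in DMSO. The groups did not overlap, but DMSO 1 lay close to water 3, and water 1 and 4 lay well above water 2 and 3. The log2 fold change was -1.99 ± 0.36 (edgeR adjusted p = 0.00179), and -1.20 without water 1 and 4 (edgeR adjusted p = 0.0886). As these are bulk samples, fewer cells with a transcript and less of it per cell cannot be told apart, here and for the genes that follow.

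The same order of libraries was seen in several other large falls. UCA1, a long noncoding RNA, stood at 32.7, 15.3, 14.1 and 44.3 CPM in water and at 11.8, 5.05, 5.96 and 5.6 CPM in DMSO. SOX5, a transcription factor of cartilage and nerve development, stood at 33.8, 14.5, 12.9 and 48.5 CPM in water and at 12.1, 7.8, 7.58 and 7.62 CPM in DMSO. In both, water 4 and water 1 were the highest libraries and DMSO 1 reached close to water 3. Their log2 fold changes of -1.88 and -1.63 were -1.03 and -0.63 without water 1 and 4 (edgeR adjusted p = 0.15 and 0.324). PAX8-AS1, ZNF114, MYH15, S100A4 and ANKRD22 had log2 fold changes of -1.42 to -1.02 that were -0.76 to -0.58 without these libraries, with edgeR adjusted p of 0.0738 to 0.203. S100A4 encodes a calcium-binding protein of motile cells, and MYH15 a myosin heavy chain. PAX8-AS1, UCA1, ZNF114 and ANKRD22 have exons that overlap genes on the opposite strand.

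The largest falls that were also called without water 1 and 4 were those of CCL2, GOLGA8F, HEPHL1 and C5orf46. CCL2 (chr17:34255274-34257208), a chemokine that attracts monocytes, stood at 18.6, 11.8, 11.9 and 19.6 CPM in water and at 8.69, 6.5, 5.96 and 6.05 CPM in DMSO. Its means were 15.5 ± 4.21 and 6.8 ± 1.28 CPM (SD, n = 4 each), a log2 fold change of -1.18 ± 0.15 (edgeR adjusted p = 0.000102), and -0.80 without water 1 and 4 (edgeR adjusted p = 0.0014). HEPHL1, a copper-dependent ferroxidase, stood at 3.44, 3.15, 2.95 and 4.49 CPM in water and at 1.75, 1.57, 1.56 and 1.57 CPM in DMSO. C5orf46, a gene for a small protein, stood at 4.98, 4.89, 4.81 and 5.99 CPM in water and at 2.89, 2.47, 2.33 and 2.09 CPM in DMSO. For HEPHL1 and C5orf46 the gap between the groups was wider than either group's range on the log2 scale, and their log2 fold changes of -1.11 and -1.07 were -0.91 and -0.98 without water 1 and 4. GOLGA8F and its neighbor GOLGA8G, copies of a golgin gene on chromosome 15, had log2 fold changes of -1.13 and -1.01, and -1.19 and -0.93 without these libraries. These copies share 93.6% and 77.2% of their 100-base stretches with other genes, so which copy the counts belong to is uncertain.

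**Figure D3:**
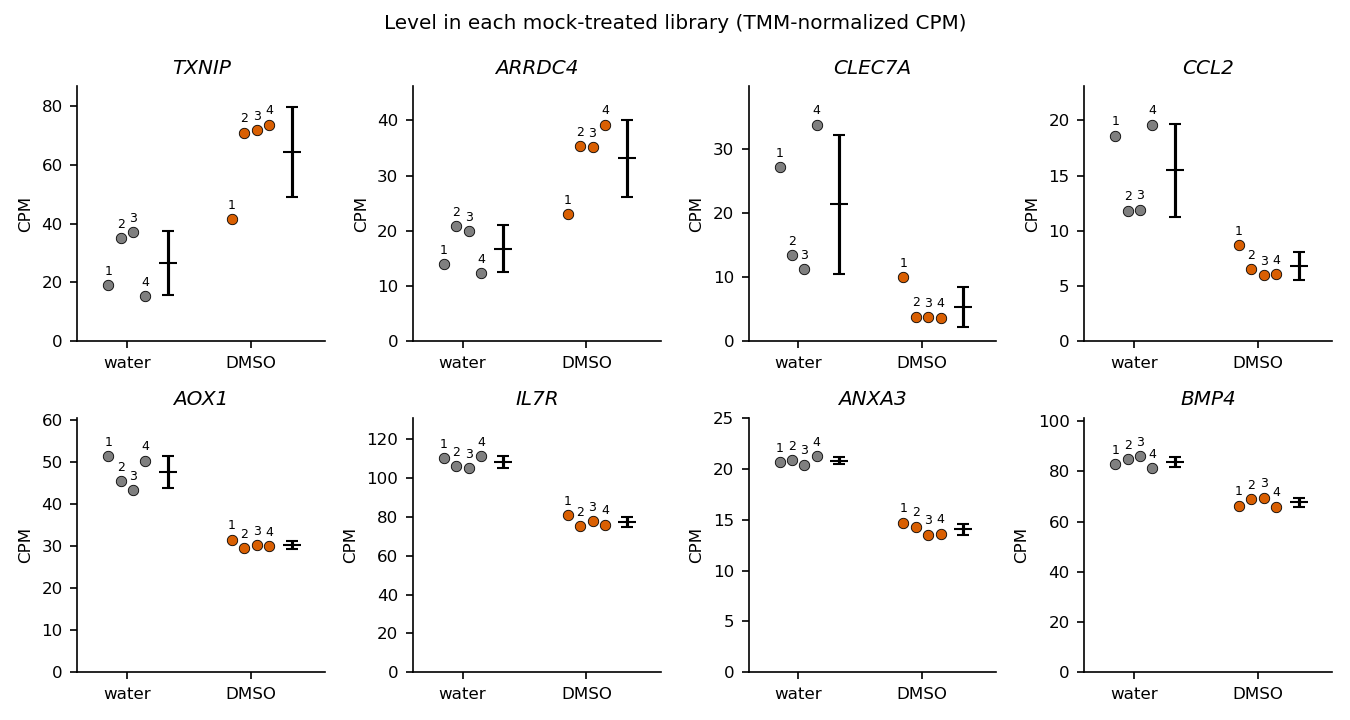
Level of 8 genes in each mock-treated library in TMM-normalized CPM (vertical axes from 0), with the replicate number above each point (water grey, DMSO orange) and the mean ± SD of the 4 libraries in black. In the upper row water 1 and 4 lie farther from DMSO than water 2 and 3 do, and DMSO 1 lies nearer to water than DMSO 2 to 4, whereas in the lower row the groups are tight and their gap is wider than the range within either.

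A different set of genes had small changes and tight groups. The genes with the lowest adjusted p were IL7R, ANXA3 and AOX1, which were named after their values were seen. AOX1 (chr2:200586014-200677064), aldehyde oxidase, an enzyme that oxidizes aldehydes and nitrogen heterocycles, stood at 51.4, 45.5, 43.3 and 50.4 CPM in water and at 31.6, 29.6, 30.2 and 30.0 CPM in DMSO, a log2 fold change of -0.65 ± 0.05 (edgeR adjusted p = 3.18e-07). IL7R (chr5:35852695-35879603), the receptor subunit for interleukin-7, stood at 110, 106, 105 and 111 CPM in water and at 80.9, 75.2, 77.7 and 76.0 CPM in DMSO, a log2 fold change of -0.48 ± 0.03 (edgeR adjusted p = 2.52e-07). ANXA3 (chr4:78551747-78610451), a calcium-dependent phospholipid-binding protein, stood at 20.6, 20.8, 20.4 and 21.2 CPM in water and at 14.7, 14.3, 13.5 and 13.6 CPM in DMSO, a log2 fold change of -0.56 ± 0.04 (edgeR adjusted p = 2.52e-07). In all 3 genes the highest DMSO library lay well below the lowest water library. Without water 1 and 4 their log2 fold changes were -0.55, -0.44 and -0.55, with edgeR adjusted p of 9.03e-06, 2.34e-05 and 2.34e-05.

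The 104 genes lower in both fits included, beside those above, genes of mixed kinds, of which the following 8 were also named after their values were seen. SLAMF7, an immune cell receptor, had log2 fold changes of -0.70 with all libraries and -0.56 without water 1 and 4. KRT7, a keratin of simple epithelia, had -0.51 in both fits. PDGFC, PDGFRB and FGF1, growth factors and a growth factor receptor, had -0.44, -0.37 and -0.38 with all libraries and -0.39, -0.26 and -0.34 without these. INPP4B, a phosphoinositide phosphatase, had -0.68 and -0.64, the lysosomal protease gene CTSS had -0.45 and -0.43, and TRPM2, a calcium-permeable channel, had -0.38 and -0.33. From the naming rule came LAMA3, a laminin chain (-0.91 and -0.82), the cold-sensing channel TRPM8 (-0.88 and -0.62) and the chitinase-like CHI3L2 (-0.82 and -0.68).

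The 15 genes higher in both fits had a median log2 fold change of 0.31 with all libraries and 0.24 without water 1 and 4. UNC80 and BCYRN1 had the largest changes and are given above. NID1, the basement membrane protein nidogen-1, stood at 90.6, 105, 104 and 87.4 CPM in water and at 120, 138, 139 and 136 CPM in DMSO, a log2 fold change of 0.46 that was 0.35 without water 1 and 4 (edgeR adjusted p = 0.00378). XKR4, a membrane protein of the XK family, CACNA2D2, an auxiliary subunit of calcium channels, and SEMA4F, a semaphorin, had log2 fold changes of 0.42, 0.37 and 0.33, and of 0.34, 0.29 and 0.28 without these libraries. Those named after their values were seen include OGA, the enzyme that removes O-GlcNAc from proteins (0.30 and 0.24), the splicing factor HNRNPH1 (0.30 and 0.22), MGAT2 and B4GALNT1, enzymes of glycan synthesis (0.28 and 0.22, and 0.26 and 0.20), and NNMT, which methylates nicotinamide (0.15 in both).

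Lists of genes with a shared role were read against the 4.29% of all genes called and the median log2 fold change of 0.00. Among 41 G2/M targets of DREAM, 3 rose and 0 fell. NEK2, a mitotic kinase, stood at 27.1, 30.1, 30.9 and 23.1 CPM in water and at 35.4, 36.4, 35.8 and 36.5 CPM in DMSO, with a log2 fold change of 0.37 that was 0.24 without water 1 and 4 (edgeR adjusted p = 0.00957). FAM83D and KIF4A, which act on the mitotic spindle and chromosomes, had 0.33 and 0.24, and their edgeR adjusted p without these libraries was 0.12 and 0.119. The log2 fold change was above 0 for 39 of the 41 genes, with a median of 0.21 that was 0.09 without water 1 and 4. The number called higher ranged from 1 to 14 when single libraries were left out. The median level of the list, relative to the mean of the 8 libraries, was -0.19, 0.01, 0.02 and -0.26 on the log2 scale in water replicates 1 to 4 and 0.03, 0.15, 0.12 and 0.12 in DMSO replicates 1 to 4, so DMSO 1 lay next to water 2 and 3.

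The 36 tested G1/S targets showed 0 called genes in either direction, with a median of 0.07 that was 0.01 without water 1 and 4. Their list level in DMSO 1 lay below those of water 2 and 3, so the groups overlapped. Of 12 DREAM subunits, E2F5, which encodes an E2F repressor, fell (log2 fold change -0.59, edgeR adjusted p = 0.000736, and 0.0275 without water 1 and 4), and exons of a gene on the opposite strand overlap it. Of 10 tested cell cycle inhibitors, D cyclins and their kinases, CDK6 fell (-0.22, edgeR adjusted p = 0.00179, and 0.0773 without these libraries). DYRK1A, the kinase that both inhibitors act on, stood at 18.3 to 20 CPM in water and 17 to 18.3 CPM in DMSO, with a log2 fold change of -0.11 (edgeR adjusted p = 0.171). None of 13 tested replication-dependent histone genes was called.

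Genes of the responses to oxidants and amino acid shortage moved by small amounts. Of 19 tested NRF2 targets, 5 rose and 0 fell. The median of 0.11 was also 0.11 without water 1 and 4, where none was called. With single libraries left out, 1 to 4 were called higher. The log2 fold change was above 0 for 15 of the 19, and it was lowest in AKR1C3, at -0.46 and not called. NQO1, a quinone reductase, stood at 18.5, 19.3, 19.5 and 17.5 CPM in water and at 24.0, 22.7, 22.1 and 21.2 CPM in DMSO, with a log2 fold change of 0.27 that was 0.22 without water 1 and 4 (edgeR adjusted p = 0.0619). FTL, the ferritin light chain, SRXN1, sulfiredoxin, TXNRD1, thioredoxin reductase, and PGD, of the pentose phosphate pathway, had 0.19, 0.15, 0.13 and 0.11, and SRXN1 shares 90.4% of its 100-base stretches with other genes. The list level was -0.06 to -0.02 in water and 0.05 to 0.06 in DMSO, with no overlap and with DMSO 1 the highest library.

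Of 20 genes of the amino acid response, VLDLR and DDIT3 rose, by 0.29 and 0.24 on the log2 scale. VLDLR encodes a lipoprotein receptor and DDIT3 the stress transcription factor CHOP, which overlaps genes on the opposite strand. The list's median was 0.15, and 0.10 without water 1 and 4, where none was called. Of 24 immediate early genes, IER2 and JUN rose by 0.24 and 0.23, with median 0.07, and 0.08 without these libraries, where neither was called. JUN stood at 63.5 to 64.4 CPM in water and 73.9 to 76.6 CPM in DMSO, and its call was lost in each of 8 fits that left out 1 library, with an edgeR adjusted p of at most 0.0249.

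No gene was called among 18 genes of the unfolded protein response, 15 cytosolic heat shock genes, 5 tested metallothionein and zinc transporter genes and 16 tested genes of methionine sulfoxide and sulfur amino acid metabolism, with medians of -0.01, 0.04, -0.04 and 0.01. Of the aryl hydrocarbon receptor targets 7 were tested, and NQO1 alone was called.

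Of 21 p53 targets, 4 fell and 0 rose, with a median of -0.08 that was -0.05 without water 1 and 4. With single libraries left out, 1 to 4 were called lower. BAX, a pore-forming protein of apoptosis, stood at 96.2, 91.4, 92.5 and 96.8 CPM in water and at 85.0, 81.1, 78.3 and 78.8 CPM in DMSO, with a log2 fold change of -0.22 that was -0.19 without these libraries (edgeR adjusted p = 0.014). ZMAT3, an RNA-binding protein, RRM2B, a ribonucleotide reductase subunit, and AEN, a nuclease, had -0.33, -0.26 and -0.14, and their edgeR adjusted p without water 1 and 4 was 0.0887, 0.277 and 0.128.

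Extracellular matrix genes differed in both directions. Of 29 tested, 2 rose and 6 fell, with a median of -0.11 that was -0.14 without water 1 and 4. With single libraries left out, 1 to 3 were called higher and 3 to 5 lower. COL11A1, a fibrillar collagen, stood at 105, 106, 106 and 113 CPM in water and at 83.9, 80.8, 83.6 and 80.9 CPM in DMSO, with a log2 fold change of -0.38 that was -0.37 without these libraries (edgeR adjusted p = 0.000922). THBS1, the matricellular protein thrombospondin-1, stood at 164, 175, 177 and 165 CPM in water and at 140, 136, 138 and 143 CPM in DMSO, with -0.29 and -0.34 in the respective fits. In both genes the gap was wider than the range within either group. LUM, the proteoglycan lumican, had -0.64, and -0.38 without these libraries (edgeR adjusted p = 0.0163), while COL3A1, COL12A1 and COL5A2 were called with all libraries and not without these. NID1, given above, and COL6A2 rose, COL6A2 with all libraries only. THBS1 and the collagens after COL11A1 lie outside the naming rule and were picked once their values were known. The list level of water 2 and 3 lay above all other libraries, at 0.09 and 0.08, and water 1 and 4 lay within the range of DMSO. In the list of 15 tested metalloproteinases and their inhibitors, MMP24 and TIMP1 rose, the latter from 902 to 990 CPM in water to 1047 to 1087 CPM in DMSO, and neither was called without water 1 and 4.

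Some signaling genes had small changes with tight groups. BMP4 (chr14:53949736-53958761), a bone morphogenetic protein that drives osteoblast differentiation, stood at 82.9, 84.8, 85.9 and 81.1 CPM in water and at 66.3, 68.8, 69.4 and 65.9 CPM in DMSO. Its means were 83.6 ± 2.1 and 67.6 ± 1.74 CPM (SD, n = 4 each), and its log2 fold change of -0.31 was -0.33 without water 1 and 4 (edgeR adjusted p = 0.00062). ID1, a target of BMP signaling, rose at the same time, from 11.5 to 12.3 CPM in water to 14.6 to 15.6 CPM in DMSO (log2 fold change 0.35, edgeR adjusted p = 0.00184, and 0.0525 without water 1 and 4). SKI, a repressor of TGF-beta signaling, rose by 0.20 on the log2 scale. Of the 23 genes of the TGF-beta and BMP list, 3 rose and 1 fell, and the median was 0.01. None of the rises was called without water 1 and 4.

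IGFBP4, which binds insulin-like growth factors, stood at 101, 103, 104 and 105 CPM in water and at 90.4, 88.6, 85.7 and 87.0 CPM in DMSO, with log2 fold changes of -0.23 with all libraries and -0.24 without water 1 and 4 (edgeR adjusted p = 0.0058). IGFBP7, a related secreted protein, had -0.42, and -0.27 without these libraries (edgeR adjusted p = 0.0541). With TXNIP and ARRDC4, these were the called genes among 20 tested of FOXO, insulin and growth factor signaling, whose median was -0.01. TAGLN and CALD1, which bind actin, fell by 0.32 and 0.19 on the log2 scale among 21 YAP, TEAD and SRF targets. TAGLN shares 35% of its 100-base stretches with other genes, and neither gene was called without water 1 and 4. CCL2 was the called gene of 23 tested in the NF-kB list (median -0.03). In the interferon list, DDX58, the RNA sensor RIG-I, was the called gene of 29 (log2 fold change -0.44, edgeR adjusted p = 0.00144, and 0.0182 without water 1 and 4), 20 of the 29 were below 0, the median was -0.15, and DDX58 shares 40.8% of its stretches with other genes. BHLHE41 and TEF rose among 18 circadian clock genes, and NKD1 fell among 13 tested Notch and Wnt targets. None of them was called without water 1 and 4.

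The list with the largest median difference held targets of DUX4 and other genes of cleavage-stage embryos, which are silent in most adult cells. It was drawn up after such genes had been seen among changes in the series, which are measured against these same vehicle libraries, so its counts and median are a description and not independent evidence of its direction. Of 14 tested, 8 fell and 0 rose, and 13 had a log2 fold change below 0. The median was -0.58, and -0.42 without water 1 and 4, where TRIM49 alone was called. TRIM49, of the tripartite motif family, stood at 3.13, 3.26, 2.88 and 3.47 CPM in water and at 2.03, 1.53, 1.88 and 1.64 CPM in DMSO (log2 fold change -0.84, and -0.78 without water 1 and 4, edgeR adjusted p = 0.00965). PRAMEF12, of a family of leucine-rich repeat proteins, stood at 7.73, 7.18, 6.53 and 8.38 CPM in water and at 4.99, 4.63, 4.66 and 3.7 CPM in DMSO (-0.72, and -0.60 without these libraries, edgeR adjusted p = 0.02). MBD3L2 had -0.71, and the transcription factor ZSCAN4, the demethylase KDM4E, PRAMEF1, TRIM43 and TRIM48, named after their values were seen, had -0.54, -0.93, -0.80, -0.63 and -0.51. The list level was 0.37, 0.21, 0.14 and 0.54 in water and -0.19, -0.28, -0.28 and -0.40 in DMSO. The groups were apart, with water 1 and 4 the highest. TRIM49 and MBD3L2 share 69.7% and 79.4% of their stretches with other genes, so their counts and those of similar families are uncertain.

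**Figure D4:**
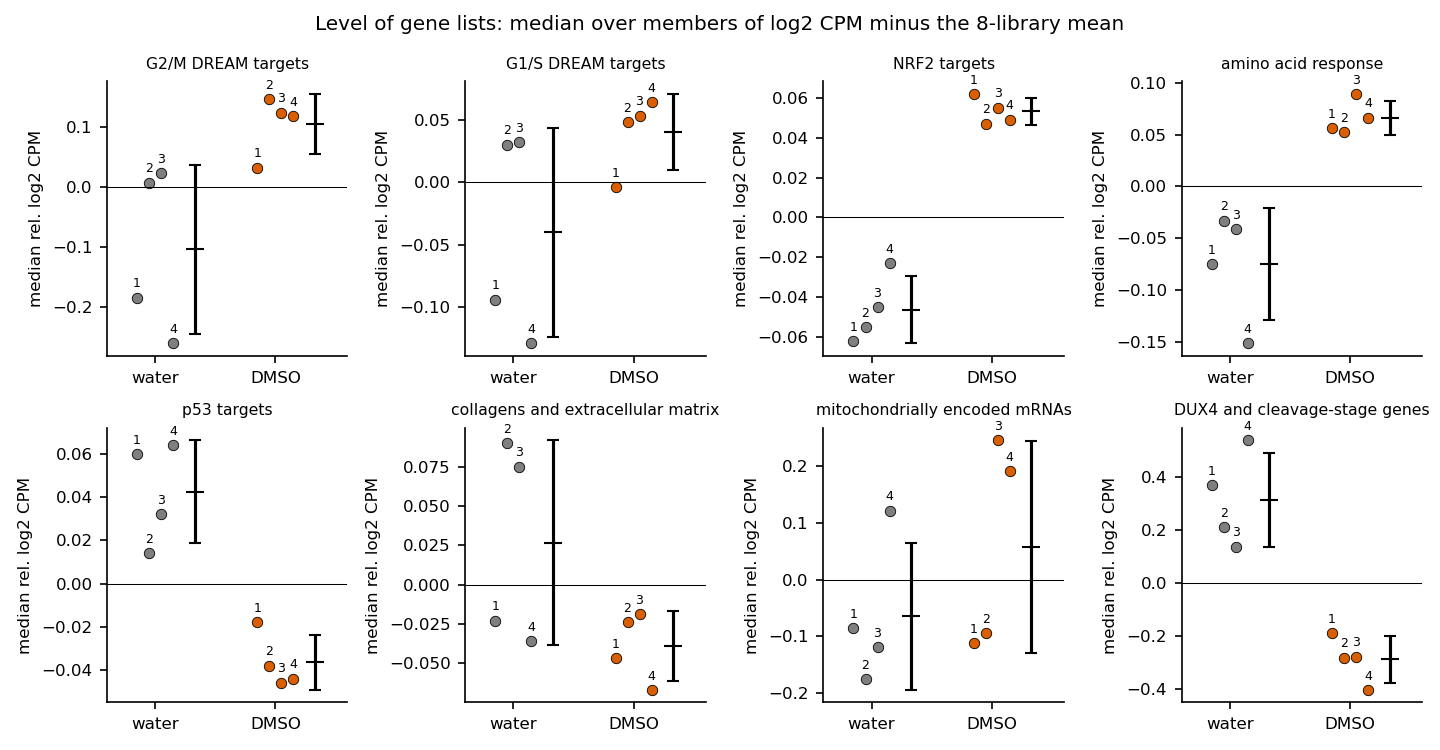
Level of 8 gene lists in each mock-treated library, as the median over the tested members of log2 CPM minus the 8-library mean of each gene (vertical axes differ in range; the line marks 0), with the replicate number above each point and the mean ± SD of the 4 libraries in black. G2/M targets, the NRF2, amino acid, p53 and DUX4 lists have no overlap between water (grey) and DMSO (orange), and the G1/S, matrix and mitochondrial lists do.

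Genes of energy and protein metabolism differed little. None of 13 mitochondrially encoded mRNAs was called, and their median of 0.11 was 0.21 without water 1 and 4. Their list level was highest in DMSO 3, DMSO 4 and water 4, in both groups. None of 41 nuclear genes of oxidative phosphorylation, 11 tested genes of fatty acid synthesis and 23 of lysosomes and autophagy was called, with medians of 0.03, 0.01 and -0.04. RPS2 and RPL8 rose among 58 cytosolic ribosomal protein genes, by 0.19 and 0.15, with a median of 0.05, and 19.3% of the stretches of RPS2 are shared with other genes. HSD17B7 fell among 24 tested genes of cholesterol synthesis, and GAPDH rose and PFKFB3 fell among 26 tested genes of hypoxia and glycolysis. These calls, and those of RPS2 and RPL8, were not seen without water 1 and 4. None of 11 tested nuclear-retained long noncoding RNAs was called. Of the genes often used as references, GAPDH had a log2 fold change of 0.17 (edgeR adjusted p = 0.00597, and 0.169 without water 1 and 4), ACTB 0.08 (edgeR adjusted p = 0.097) and TBP 0.03 (edgeR adjusted p = 0.68). Among the genes named by rule, exons of BHLHE41, BMP4, CACNA2D2, CDK6, DYRK1A, GAPDH, IER2, IGFBP7, KIF4A, NKD1, NQO1, TAGLN, THY1, TRPM8, VIM and VLDLR also overlap genes on the opposite strand.

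Markers of the line and of other cell types were read in the same libraries. Among 14 osteoblast lineage markers, 9 were tested and none was called. RUNX2, ALPL and COL1A1 were present in every library, while DLX5 had no count in any of the 8 and SP7, IBSP, DMP1 and COL1A2 had at most 10 counts in any. The summed level of this list was 244 to 252 CPM in water and 225 to 232 CPM in DMSO. COL1A1 weighed most in this sum, with at most 10546 counts in a library, and RUNX2 came next with at most 2307. Of 10 tested mesenchymal markers, VIM, an intermediate filament, rose (0.21), and S100A4 and THY1 fell (-1.14 and -0.19), none of them called without water 1 and 4, and TWIST1 had no count. The epithelial list summed to 60.6 to 79.1 CPM in water and 51.2 to 61.9 CPM in DMSO, nearly all of it CLDN4, and 4 of its 10 genes were tested and none called. The blood cell list summed to 45.4 to 51.2 CPM in water and 45.9 to 47.7 CPM in DMSO, nearly all of it ITGAM and CD68, with 5 of 10 tested, none called, at most 18 counts of PTPRC in any library and none of HBA1. The endothelial list summed to 58.3 to 63.8 CPM in water and 59.2 to 62.4 CPM in DMSO, with 7 of 8 tested, none called, and CLDN5 with 1 count. EGFL7 weighed most in this sum, with at most 3273 counts in a library. The epithelial sums were highest in water 4 and water 1, as were the genes lower in DMSO, and their part in those results was not tested.

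The levels in the inhibitor-treated libraries, which share their control libraries with this comparison, are set beside those of the vehicles for a few genes. TXNIP had a mean of 22.9 ± 1.01 CPM with harmine and 19.0 ± 6.22 CPM with INDY (SD, n = 4 each), beside 26.6 with water and 64.5 with DMSO, so the mean with DMSO was above the other 3. DHRS2 had 517 ± 12.3 and 512 ± 145 CPM with harmine and INDY, and 615 and 1010 CPM with water and DMSO. CLEC7A had 2.11 ± 0.34 and 3.85 ± 1.54 CPM with harmine and INDY, and means of 21.4 and 5.29 CPM with water and DMSO. DMSO replicate 1, at 10 CPM, raised the DMSO mean, and the nearest other DMSO library stood at 3.76 CPM. The INDY mean therefore lay within the range of the DMSO libraries. In water, replicates 1 and 4 raised the mean. TRIM49 had 2.1 ± 0.43 CPM with harmine and 7.06 ± 0.22 CPM with INDY, beside 3.18 and 1.77 CPM with the vehicles. THBS1 had 417 ± 19.8 CPM with harmine and 88.1 ± 3.05 CPM with INDY, beside 170 and 139 CPM with the vehicles.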

How the data were processed

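RNA of U2OS cells was sequenced after poly(A) selection with a stranded kit, per the labels. The authors quantified GENCODE transcripts (GRCh38) with Salmon 1.1 and deposited the estimated counts, summed to genes. Reads were not reprocessed, and transcripts of similar genes can exchange counts at that step. Estimated counts were rounded. Genes passing filterByExpr were tested with edgeR 4.0.16 (TMM, glmQLFit, glmQLFTest; R 4.3.3) in one model of 16 libraries in 4 groups, with Benjamini-Hochberg adjusted p under 0.01 over 20446 genes. Log2 CPM used a prior count of 2. Groups follow the labels, whose titles name each control by its inhibitor. The vehicle of each control is taken as the solvent that the paper gives for that inhibitor, water or DMSO. Names and positions came from GENCODE (56629 genes matched by identifier, 2227 by symbol, 225 unmatched). On simulated data the test was checked for known fold changes. The genes and 37 lists were chosen with earlier results of these data known.

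Genes were named by rule: called, with a gene name, log2 CPM averaging 1 or more and groups that do not overlap, the 12 largest rises and falls; the next 5 each way that are also called without water replicates 1 and 4; the 3 largest called members of a list, or all where 5 or fewer; and ACTB, GAPDH, TBP and DYRK1A, 78 in all, of which some are not reported here. Lists were described by counts and medians, with no set test. Alternatives were DESeq2 1.42.0, limma 3.58.1 (voom), other size factors, filters and thresholds, the 8 mock-treated libraries alone, a replicate block, and fits without single libraries, without water 1 and 4, and, chosen after seeing the data, without these and DMSO 1. Shared sequence is the percent of a gene's 100-base transcript stretches found in another gene.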

Additional observations from a re-analysis of the deposited data

Results flagged for a closer look

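Within the groups of 4 libraries of the 78 named genes, 14 of 156 groups had a library far from the other 3 by Dixon's test at the 95% level, a test that chance flags in about 1 in 20 groups. In 12 of these the library was DMSO replicate 1. It was the lowest DMSO library for TXNIP (41.5 CPM, nearest other 71.1), DHRS2 (893 CPM), NID1 (120 CPM) and RPS2 (2110 CPM). It was the highest for CLEC7A (10 CPM, nearest other 3.76), UCA1 (11.8 CPM), SOX5 (12.1 CPM), ZNF114 (33.6 CPM), MYH15 (34.1 CPM), S100A4 (15.7 CPM), HEPHL1 (1.75 CPM) and DDX58 (116 CPM). In each of these genes DMSO 1 was the DMSO library nearest to water. The others were water replicate 4 for C5orf46, with 5.99 CPM, and DMSO replicate 2 for GOLGA8G, with 1.91 CPM. The genes share libraries, so these cases are not independent, and their cause was not tested.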

How the results depend on the processing

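The counts of 323 genes higher and 554 lower in DMSO depended on the libraries and the threshold. They became 15 and 106 without water replicates 1 and 4, 113 and 312 when only the 8 mock-treated libraries were fitted without these, and 17 and 128 when DMSO replicate 1 was left out too, a choice made after seeing the data. Leaving out 1 library gave 88 to 390 higher and 237 to 625 lower genes, and the counts moved by over 1.5 times without water 1, water 4, DMSO 2, DMSO 3 or DMSO 4 (88, 99, 92, 96 and 93 higher, and 268, 273, 237, 251 and 250 lower). DESeq2 called 715 and 877, an adjusted p under 0.05 gave 1058 and 1326, and a fold change of at least 1.5 left 23 and 138. The cause was not tested. Other size factors, voom, both filters and the 8 mock-treated libraries alone stayed within 1.5 times of the main counts. A fit with the replicate number as a block gave 301 and 501 genes. Same-numbered libraries correlated at -0.012 to 0.073 in their deviations from the group means, and 2 of 4 pairs correlated best with their own number. Over all tested genes the numbers thus showed no clear pairing, and pairing in a part of the genes was not tested. Of 75 called genes named by rule, 35 kept their call without any single library and 40 lost it at least once. None of the 78 named genes reversed direction under any alternative run. Of the 75 called, 56 lost their call without water 1 and 4 in the fit that kept the inhibitor libraries. With only the 8 mock-treated libraries fitted, the same omission lost the calls of 35, so these losses depended on the model as well. Genes of low level rest on the fewest counts and have the least precise values, and errors of read assignment between similar genes are not seen in depth.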
